A study of Mus musculus and Sus scrofa with 12 samples.

Results

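Histone mark peaks were examined at 5 genes of the Eph and ephrin-A family that are studied in limb development, the receptor genes Epha3, Epha4 and Epha7 and the ligand genes Efna2 and Efna5, in the forelimb of mouse and pig embryos. The genes were chosen by name, and every deposited peak at their transcription start sites (TSSs), inside them and within 500 kb of their 5′ end was used. They are 5 of the 14938 coding genes that have 1 record of the same symbol in both annotations, called orthologs here, and all 5 were found in both. Pig symbols are written in capitals. The study mapped H3K4me3, H3K27ac and H3K4me1 by ChIPmentation, a chromatin immunoprecipitation in which a transposase adds the sequencing adapters, in wild-type forelimbs of mice at E11.5 and of pigs at day 23 of gestation. Embryos came from natural matings, littermates served as biological replicates, and the labels name 2 samples per species and mark, 12 in all. For pig H3K4me1 the design text gives 1 biological replicate only. Each of the 6 pairs of species and mark is represented by 1 consensus list of peak positions without scores, so no error between replicates exists for any value below, the depth is unknown, and mouse and pig are set side by side without a test.

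Eph receptors are membrane tyrosine kinases that bind ephrins on neighbouring cells, and ephrin-A ligands are held in the membrane by a glycolipid anchor, so that signals pass by cell contact and often end in repulsion or sorting. In the limb, EphA4 on motor axons and ephrin-A5 in the mesenchyme take part in the choice between dorsal and ventral nerve paths, and EphA7 and EphA3 have been linked to the grouping of mesenchymal cells under posterior Hox factors. H3K4me3 lies at promoters, H3K27ac at active promoters and enhancers, and H3K4me1 at enhancers and promoter flanks.

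Of 9 markers of forelimb and limb mesenchyme, 9 carried H3K27ac at the TSS in mouse and 8 in pig, Prrx1 being the exception. Pig PRRX1 had neither H3K4me3 nor H3K27ac within 1 kb of an annotated TSS, but had both within 2.5 kb. The hindlimb selectors Pitx1 and Tbx4, 6 neuron markers (5 with a record in pig) and 4 markers of glia and neural crest carried none in either species. H3K27ac lay at 1 and 0 of 4 muscle precursor markers, 1 and 1 of 5 endothelial markers, 2 and 0 of 5 blood markers, and 1 and 1 ectoderm markers, of 6 in mouse and of 4 with a record in pig (mouse first). A forelimb holds several cell types, and a peak seen in fewer cells cannot be told apart from a weaker peak in all of them. Pig H3K4me3 and H3K27ac libraries were sequenced with 50 bp reads and the others with 100 bp reads cropped to 50 bp, so this difference goes with species for those 2 marks.

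Sequences of 4 elements are shown because the comparison of the loci turns on them. Each was found by aligning a peak to the locus of the other species with blastn. Every pair below is the most similar window of up to 200 aligned columns in that alignment, read 5′ to 3′ on the strand of the gene, with the bases that differ from the other species, or have no counterpart there, in capitals. Builds are GRCm38 for mouse and Sscrofa11.1 for pig, and all stretches lie on the minus strand outside annotated exons. The first pair, chr1:77085087-77085283 in mouse and chr15:123039115-123039306 in pig, lay downstream of Epha4 and carried H3K27ac in both species, with 73.5% of columns identical.
Epha4 mouse: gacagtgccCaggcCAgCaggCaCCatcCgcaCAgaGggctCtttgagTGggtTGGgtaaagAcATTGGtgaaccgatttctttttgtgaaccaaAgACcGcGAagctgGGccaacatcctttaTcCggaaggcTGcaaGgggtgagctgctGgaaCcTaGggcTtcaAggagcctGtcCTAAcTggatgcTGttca
EPHA4 pig: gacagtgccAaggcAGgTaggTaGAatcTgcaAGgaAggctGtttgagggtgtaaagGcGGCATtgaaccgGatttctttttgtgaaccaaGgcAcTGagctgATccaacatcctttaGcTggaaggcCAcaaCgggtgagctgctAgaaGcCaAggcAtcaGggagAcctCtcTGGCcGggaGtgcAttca
The second pair, chr16:63857698-63857897 and chr13:166936265-166936459, lay in intron 1 of Epha3 in peaks of H3K4me3 and H3K27ac in both species, with 86% of columns identical.
Epha3 mouse: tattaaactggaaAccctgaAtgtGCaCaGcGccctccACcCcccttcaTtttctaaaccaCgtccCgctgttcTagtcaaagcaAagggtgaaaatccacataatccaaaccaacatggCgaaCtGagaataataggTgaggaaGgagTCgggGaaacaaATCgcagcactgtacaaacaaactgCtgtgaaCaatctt
EPHA3 pig: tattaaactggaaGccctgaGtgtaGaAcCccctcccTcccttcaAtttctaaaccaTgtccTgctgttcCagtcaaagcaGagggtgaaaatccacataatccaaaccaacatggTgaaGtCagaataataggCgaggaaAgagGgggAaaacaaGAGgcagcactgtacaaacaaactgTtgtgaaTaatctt
The third pair, chr17:62819105-62819303 and chr2:112754848-112755045, lay in intron 1 of Efna5 under H3K4me3 and H3K4me1 without H3K27ac in both species, with 90% of columns identical.
Efna5 mouse: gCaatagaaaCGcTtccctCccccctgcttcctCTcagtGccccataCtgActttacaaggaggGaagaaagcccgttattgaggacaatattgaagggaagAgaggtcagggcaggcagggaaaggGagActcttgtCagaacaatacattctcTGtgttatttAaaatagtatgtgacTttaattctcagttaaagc
EFNA5 pig: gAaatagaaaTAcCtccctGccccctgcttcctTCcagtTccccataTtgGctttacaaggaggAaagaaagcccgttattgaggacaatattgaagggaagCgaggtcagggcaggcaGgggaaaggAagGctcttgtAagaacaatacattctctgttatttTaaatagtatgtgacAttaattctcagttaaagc
The fourth pair, chr1:77396583-77396781 and chr15:123383410-123383607, lay in intron 8 of mouse Epha4 under H3K27ac, whereas the matched pig bases carried none of the 3 marks although 88.5% of columns were identical.
Epha4 mouse: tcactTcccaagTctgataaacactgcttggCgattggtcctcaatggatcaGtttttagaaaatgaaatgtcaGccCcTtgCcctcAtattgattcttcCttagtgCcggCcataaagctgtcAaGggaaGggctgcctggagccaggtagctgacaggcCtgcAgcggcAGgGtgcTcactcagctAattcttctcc
EPHA4 pig: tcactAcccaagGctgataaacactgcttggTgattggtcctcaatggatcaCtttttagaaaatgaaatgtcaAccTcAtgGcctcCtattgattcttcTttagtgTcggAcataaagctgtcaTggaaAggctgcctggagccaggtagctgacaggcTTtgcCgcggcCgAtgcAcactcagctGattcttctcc

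Promoter sequence is shown for the mouse genes with the lowest and the highest GC content of the 5, which also differ in their marks at the TSS. These are the 250 bases before the RefSeq start on GRCm38, with CpG dinucleotides in capitals, Epha3 at chr16:63864176-63864425 on the minus strand and Efna2 at chr10:80179232-80179481 on the plus strand.
Epha3 mouse promoter: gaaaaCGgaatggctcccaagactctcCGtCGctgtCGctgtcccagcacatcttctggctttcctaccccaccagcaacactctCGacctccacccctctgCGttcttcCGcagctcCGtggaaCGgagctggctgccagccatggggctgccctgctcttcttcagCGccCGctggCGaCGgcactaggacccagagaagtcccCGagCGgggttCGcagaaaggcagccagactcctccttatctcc
Efna2 mouse promoter: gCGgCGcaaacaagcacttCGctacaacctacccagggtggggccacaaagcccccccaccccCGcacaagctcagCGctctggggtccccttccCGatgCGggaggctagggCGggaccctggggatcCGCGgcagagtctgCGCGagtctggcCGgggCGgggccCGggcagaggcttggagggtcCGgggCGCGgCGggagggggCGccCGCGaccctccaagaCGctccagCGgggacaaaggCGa
In the windows from 250 bases before to 50 bases after the start, GC content was 60.7% for Epha3, 64% for Epha4, 67% for Epha7, 73.3% for Efna5 and 74.7% for Efna2. The same windows held 18, 17, 28, 38 and 31 CpG dinucleotides in that order of genes. All 5 thus lay above the medians of 52.7% GC and 7 CpG over the 32851 mouse promoters of the RefSeq table.

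At the start sites, H3K4me3 was present at 5 of 5 genes in both species, so the genes differed in the other 2 marks. A gene was called marked where a peak overlapped the 1 kb on either side of any annotated TSS. Over the orthologs, H3K4me3 was called at 81.9% in mouse and 77.9% in pig, and at 74.7% in both. H3K27ac was called at 4 of 5 genes in mouse, against 52.1% of orthologs, and at 3 of 5 in pig, against 55.6%. In both species it was called at 3 of 5, namely Epha4, Epha7 and Efna5, against 42.5%. H3K4me1 was called at 3 of 5 in mouse, against 68.9%, and at 1 of 5 in pig, against 72.4%. It was called in both species at Efna5, against 55.0% of orthologs, and in mouse only at Epha7 and Efna2, against 13.9%. The H3K4me1 counts depended on the rule. In pig, a 2.5 kb window gave 3 and the 5′ end alone 0. In mouse, the wider 50% of peaks gave 1 and the TSS base inside a peak 0. With 5 genes, these counts describe the genes and give no estimate for the family.

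Epha3, a receptor for ephrin-A5 among others, had H3K4me3 alone at its start in both species. The mouse peak was 3237 bp wide, reaching 2474 bp into the gene. Pig EPHA3 had 2 narrow peaks of 757 bp and 289 bp there. No H3K27ac peak lay closer to a TSS than 5.76 kb in mouse and 6.15 kb in pig.

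Epha4, a receptor that binds both ephrin classes, had H3K4me3 and H3K27ac at its start in both species. H3K4me3 spanned 4235 bp (mouse) and 3323 bp (pig), and H3K27ac 3998 bp and 3571 bp. H3K4me1 lay away from the start, the nearest at 2.13 kb in mouse and 1.85 kb in pig. It overlapped both of these mouse peaks and the pig H3K27ac peak, but not the pig H3K4me3 peak. A window of 2.5 kb in place of 1 kb counted Epha4 as H3K4me1 marked in both.

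Epha7, a receptor that has kinase-lacking isoforms, carried all 3 marks in mouse and H3K4me3 with H3K27ac in pig. Its H3K4me3 peak had nearly the same extent in the species, 4104 bp in mouse and 3559 bp in pig. H3K27ac covered the mouse start with 1 peak of 3652 bp, whereas in pig it was split into peaks of 1154 bp and 1388 bp, the first of which began 320 bp inside the gene. Mouse H3K4me1 flanked the start with peaks of 2600 bp and 485 bp, and the nearest pig H3K4me1 peak was 8.01 kb away.

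Efna2, which encodes the ligand ephrin-A2, carried all 3 marks at its start in mouse and H3K4me3 alone in pig. Mouse Efna2 carried H3K4me3 over 4007 bp and H3K27ac over 6097 bp, the widest of the H3K27ac peaks at the starts of the 5 genes. Pig EFNA2 carried H3K4me3 over 2825 bp with no H3K27ac peak in the gene, the nearest being 13.9 kb from a TSS. By the 1 kb window, Efna2 alone of the 5 had H3K27ac at the start in 1 species, and H3K27ac in mouse only was found at 9.57% of orthologs. With the TSS base required inside a peak, or with the wider 50% of each list, Epha7 too had it in mouse only. The mouse H3K4me1 peak of 4959 bp began 961 bp inside the gene and so only just met the window, and pig H3K4me1 peaks lay 1.18 kb from a TSS on the nearer side.

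Efna5, which encodes the ligand ephrin-A5, carried all 3 marks in both species. The mouse peaks were 5110 bp of H3K4me3, 3077 bp of H3K27ac and 1976 bp of H3K4me1. The pig peaks were 3579 bp, 3498 bp and 7638 bp, but they lay inside the gene record, the H3K4me3 peak from 3797 to 7375 bp after the annotated 5′ end, at internal start sites. The sequence of the mouse H3K4me3 peak aligned over 4867 columns with 71.3% identity to the pig gene 5.35 kb inside its record, so the marked sequences correspond to each other while the pig record begins further upstream. Counted at the 5′ end alone, EFNA5 would be unmarked for all 3 marks.

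**Figure D1:**
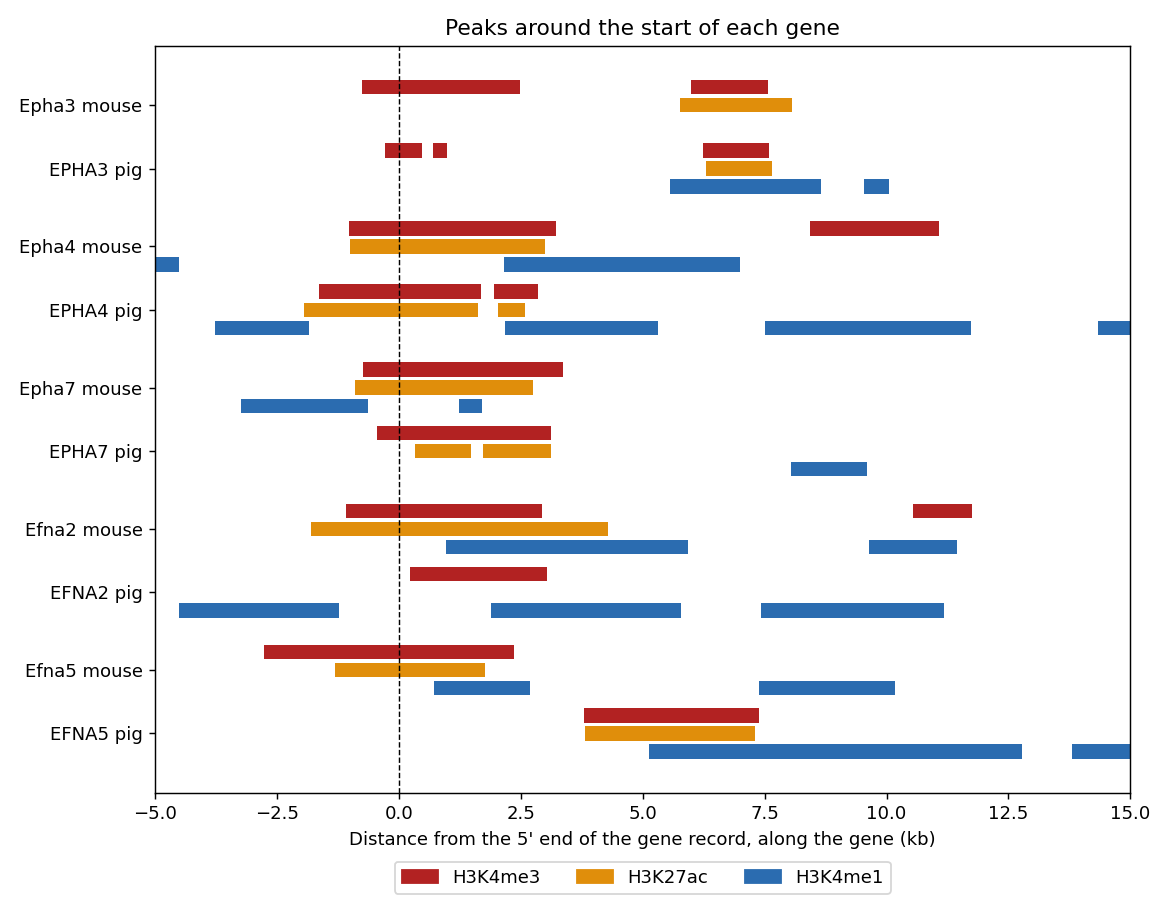
Extent of the peaks from 5 kb before to 15 kb after the 5′ end of each gene record, with distance along the gene in kb on the horizontal axis and 1 line per mark for each gene and species. H3K4me3 meets a start site in all 10 cases, the intronic pair of Epha3 appears near 7 kb in both species, and the EFNA5 peaks begin 3.80 kb inside the pig record.

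The loci themselves fell into 2 kinds in both species. Epha3, Epha4 and Epha7 had no other coding TSS within 500 kb in mouse or pig, and Efna5 had 1 in mouse (the predicted gene Gm41607) and 0 in pig. Efna2 had 60 in mouse and 51 in pig, against medians of 14 and 12 over the orthologs. The 4 isolated genes were long, from 148 kb (Epha4) to 321 kb (Epha3) in mouse and from 151 kb to 350 kb in pig, and Efna2 spanned 10.5 kb and 14.8 kb. A distal H3K27ac peak is here one that lay outside every H3K4me3 peak and more than 1 kb from every annotated TSS, and distances are from the 5′ end of the gene to the centre of the peak, negative upstream.

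**Figure D2:**
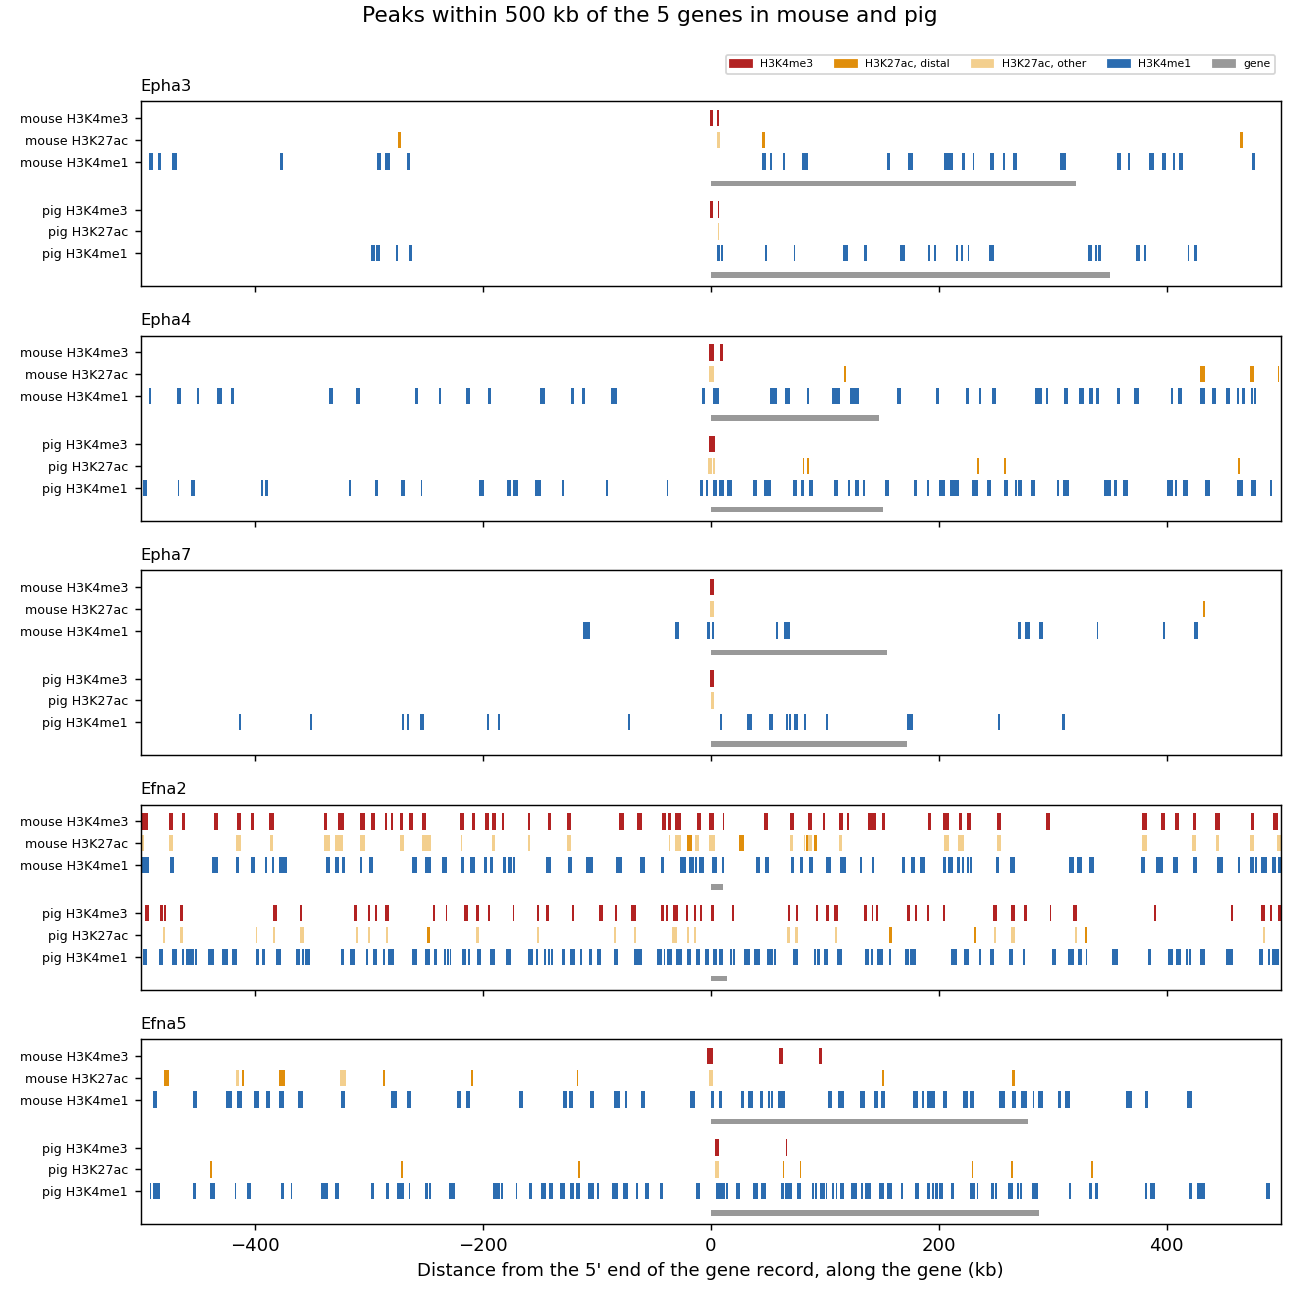
Peaks of the 3 marks within 500 kb of the 5′ end of each gene, with distance along the gene in kb on the horizontal axis, mouse above pig, gene bodies in grey, and narrow peaks drawn at no less than 1.5 kb so that they show. The 4 isolated genes have few H3K4me3 and H3K27ac peaks and more H3K4me1 peaks, from 12 at mouse Epha7 to 80 at pig EFNA5. The Efna2 locus holds 53 H3K4me3 peaks in mouse and 55 in pig.

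At Epha3 (mouse chr16:63543532-63864175, pig chr13:166592492-166942791), H3K27ac was present in intron 1 in both species and elsewhere in mouse only. The intron 1 element had H3K4me3 over 1568 bp centred at 6.78 kb and H3K27ac over 2308 bp in mouse, and H3K4me3 over 1343 bp at 6.91 kb and H3K27ac over 1346 bp in pig. Neither annotation places a TSS there, nor does GENCODE in mouse. The sequences aligned over 558 columns with 75.6% identity, and pig had H3K4me1 on the element where mouse had none within 45.0 kb of the start. Mouse added 3 distal H3K27ac peaks at -273, 46.4 and 466 kb, from 2035 to 2753 bp wide. The peak at 46.4 kb in intron 2 matched pig sequence 47.5 kb inside EPHA3 that carried H3K4me1 without H3K27ac (395 columns, 75.9% identity), and the other 2 had no match in the pig locus. Pig EPHA3 had 0 distal H3K27ac peaks within 500 kb.

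At Epha4 (mouse chr1:77367182-77515107, pig chr15:123350867-123501872), both species had several distal H3K27ac peaks, of which 1 position was held in common. Mouse had 4, at 118 kb in intron 8 and downstream of the gene at 432, 475 and 498 kb, and none upstream. Pig had 5, at 80.9 and 84.9 kb inside the gene and at 234, 259 and 463 kb downstream, and none upstream. All distal H3K27ac within 500 kb of Epha4 thus lay within the gene or beyond its 3′ end in both species, the latter toward Slc4a3, whose start is 1969 kb away in mouse and 1872 kb in pig.

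The shared Epha4 position is the pig peak at 463 kb, 834 bp wide, which aligned over 335 columns with 71.0% identity to bases 430 kb downstream in mouse, inside the mouse peak at 432 kb of 5088 bp. Both also carried H3K4me1. The pig peaks at 234 and 259 kb matched mouse sequence at 225 and 248 kb under H3K4me1 without H3K27ac (81.1% and 67.7% identity). The pig peak at 84.9 kb, 288 bp wide, overlapped coding exon 4, matched the mouse exon with 88.8% identity, and had no mark there in mouse. The mouse peak at 118 kb, which holds the fourth sequence pair, matched over 645 columns with 75.2% identity to unmarked pig sequence at 118 kb. Besides these, mouse Epha4 had an H3K4me3 peak of 2654 bp at 9.75 kb over exon 3, with no TSS in either mouse annotation, and its pig counterpart at 8.54 kb carried H3K4me1 alone.

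At Epha7 (mouse chr4:28813066-28967503, pig chr1:60771567-60944092), the marks were sparse in both species. Mouse had 1 distal H3K27ac peak, 1539 bp wide, 433 kb downstream, which matched pig sequence at 411 kb without any mark (236 columns, 71.2% identity). Pig EPHA7 had 0. H3K4me1 peaks within 500 kb numbered 12 in mouse and 20 in pig, the lowest counts of the 5 genes in each species, at percentile 6.28 of the mouse and 7.96 of the pig orthologs.

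At Efna2 (mouse chr10:80179482-80190010, pig chr2:77165187-77179936), each species had 4 distal H3K27ac peaks within 500 kb, and none of the 8 had Efna2 as its nearest coding gene. In mouse they lay at -18.4, 27, 84.0 and 92.0 kb, nearest to Cirbp, Pwwp3a and Dazap1. In pig they lay at -247, 157, 232 and 330 kb, nearest to WDR18, APC2, PLK5 and TCF3. No distal H3K27ac in this dense locus can be assigned to Efna2 by distance.

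At Efna5 (mouse chr17:62602957-62881317, pig chr2:112533124-112821293), each species had 8 distal H3K27ac peaks, and no mouse peak matched a pig H3K27ac peak. Mouse peaks lay in the gene at 152 and 266 kb and upstream at -117, -209, -287, -376, -411 and -477 kb, and those from -209 kb outward lay within the neighbouring gene Fbxl17. Of the pig peaks, 4 lay in the gene between 63.8 and 264 kb. The others lay downstream at 334 kb and upstream at -116, -271 and -439 kb. Those at -271 and -439 kb lay within FBXL17, as in mouse. So 6 of 8 mouse peaks were upstream, and 5 of 8 pig peaks were in the gene or downstream of it. Efna5 was the gene with the nearest coding TSS for 3 of the mouse and 7 of the pig peaks. The other mouse peaks were nearest to the predicted gene Gm41607, annotated 416 kb upstream. In pig the nearest upstream coding TSS was that of FBXL17 at 659 kb, so these counts depend on the annotation.

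Of the 8 mouse peaks at Efna5, 6 had a sequence match in the pig locus, 3 of them under pig H3K4me1 and 3 without any mark. The matched sequences ran from 200 to 1258 columns with 68.4% to 87.5% identity, the highest value being a coding exon of Fbxl17 in the peak at -477 kb. Of the 8 pig peaks, 4 had a match in mouse, 2 under H3K4me1 and 2 unmarked. Intron 1 of Efna5 also held the H3K4me3 peaks without H3K27ac. Mouse had them at 61.8 kb (2741 bp) and 96.6 kb (2802 bp) and pig at 66.6 kb (1343 bp). The 61.8 kb and 66.6 kb peaks shared 756 columns at 80.3% identity, both carried H3K4me1, and neither coincided with an annotated TSS. The sequence of the peak at 96.6 kb, which overlapped an exon of the RNA gene Gm46583, carried H3K4me1 alone in pig.

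Over the 5 loci, the number of distal H3K27ac peaks was similar in the species, and the length they covered was not. Mouse had 20 peaks covering 51.3 kb and pig 17 peaks covering 17.4 kb. Per gene, the mouse counts were 3, 4, 1, 4 and 8 for Epha3, Epha4, Epha7, Efna2 and Efna5, and the pig counts 0, 5, 0, 4 and 8. The covered lengths were 7.29, 12.1, 1.54, 11.6 and 18.8 kb in mouse and 0, 3.34, 0, 8.09 and 5.97 kb in pig. Mouse covered more at all 5 genes, but 74.5% of orthologs did so too, and distal H3K27ac peaks were wider in mouse over the genome, with a median of 2604 bp against 891 bp in pig.

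Set against all orthologs, the members' median of 4 distal peaks was below 5 in mouse and below 7 in pig. The share of orthologs with 1 or more distal peaks within 500 kb was 94.3% in mouse and 95.4% in pig, so Epha3 and Epha7 in pig, with 0, belonged to the small remainder. Both zeros rest on leaving out peaks that overlap H3K4me3, and with TSS windows alone as the limit each had 1. Efna5 stood at percentile 77.3 in mouse and 58.1 in pig, and Epha7 at percentile 8.88 in mouse. Pig had more peaks than mouse at 59.3% of orthologs, and among the 5 at Epha4 only.

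**Figure D3:**
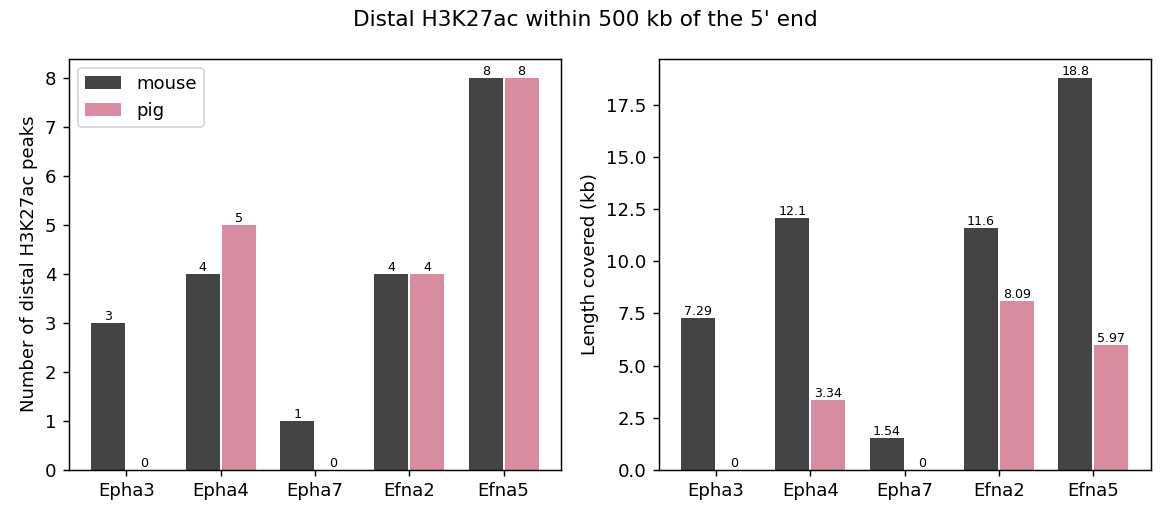
Number of distal H3K27ac peaks (left) and length covered in kb (right) within 500 kb of the 5′ end of each gene, mouse in dark and pig in light bars, with 1 consensus list per bar and no error bars. Numbers are 8 and 8 at Efna5, while the covered length there is 18.8 kb in mouse and 5.97 kb in pig.

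The distal peaks also differed in company. In mouse, 8 of 20 overlapped H3K4me1, and in pig 15 of 17. The same shares over all distal H3K27ac peaks were 48.1% in mouse and 72.2% in pig, so the difference between species had the same sign over the genome. With the wider 50% of each list the counts were 5 of 8 in both species, so no difference was seen in them. That setting also thins H3K4me1 and the H3K4me3 that defines distal, and the genome shares were not recomputed for it. It therefore cannot tell whether the difference depends on peak width. At Efna5, 4 of 8 mouse peaks and 8 of 8 pig peaks had H3K4me1.

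Matches of sequence were more often found under H3K4me1 than under H3K27ac. Of the 20 mouse distal peaks, 12 had a match in the pig locus. Of the same 20, 6 matched a pig peak of H3K27ac or H3K4me1, and 1 matched a pig H3K27ac peak. Only the 500 kb on each side of the pig 5′ end was searched, so counterparts further out count as unmatched. The mouse Epha4 peaks at 475 and 498 kb may be such cases. The mouse Epha4 peak at 432 kb already aligned to pig sequence at 467 kb. Over all orthologs, 21.1% of 83040 pairs of a gene and a mouse distal peak had a match in a pig peak of either mark within 500 kb of the ortholog, and 5.61% in a pig H3K27ac peak. By gene, the 6 matches were 1 at Epha3, 1 at Epha4, 0 at Epha7, 1 at Efna2 and 3 at Efna5. Of the 17 pig distal peaks, 10 had a match in the mouse locus, 5 under H3K4me1 and 1 of these also under H3K27ac, and 5 carried no mark in mouse. H3K4me1 covered far more sequence than H3K27ac, for example 17.1% against 0.747% of the pig Epha4 window. A wider peak offers more sequence to match, and peak width differed between species.

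**Figure D4:**
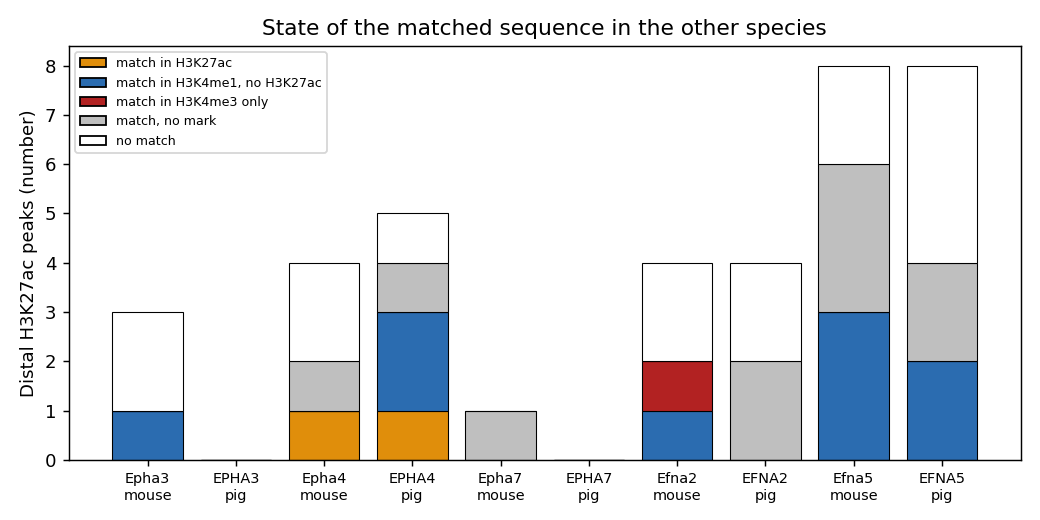
Distal H3K27ac peaks of each gene and species (vertical axis, number) by the state of the matched sequence in the other species. A match under H3K27ac appears at Epha4 alone, 1 in each direction, and at Efna5 matched sequence lies under H3K4me1 for 3 of 8 mouse and 2 of 8 pig peaks.

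H3K4me1 was the most frequent mark at each locus. Peaks in the gene numbered 13 and 16 at Epha3, 6 and 13 at Epha4, 3 and 10 at Epha7, 2 and 2 at Efna2, and 22 and 36 at Efna5 (mouse first). Pig had more at 4 of the 5 genes, and at 44.7% of orthologs. Within 500 kb, counts were 27 and 24, 45 and 55, 12 and 20, 70 and 92, and 50 and 80, higher in pig at all genes but Epha3, against 79.9% of orthologs. As a share of the gene, H3K4me1 covered 28.7% of Efna5 in mouse and 36.3% in pig, and 4.0% and 9.55% of Epha7.

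The H3K4me1 peaks of Efna5 and Epha7 also differed in how often matched sequence carried the mark in the other species. At Efna5, 46 of 50 mouse H3K4me1 peaks had a match in the pig locus and 27 of these met pig H3K4me1, which covered 23.8% of the pig window. At Epha4 the numbers were 37 of 45 and 20, with 17.1% covered, and at Epha3 20 of 27 and 9, with 5.15% covered. At Epha7, 12 of 12 had a match, and 1 met pig H3K4me1, with 4.12% covered. In the other direction, 12 of 20 pig EPHA7 peaks had a match in mouse and 1 met mouse H3K4me1, which covered 3.51% of the mouse window, and at EFNA5 61 of 80 had a match and 29 met it, with 18.6% covered.

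Short motifs were counted in the 500 bases around the centre of each distal H3K27ac peak and in the promoters, on both strands. These windows reach beyond peaks narrower than 500 bp, the narrowest being 200 bp at mouse Efna5 and 288 bp at pig EPHA4. A peak is counted below where its window held the motif. TAATTA, a core of many homeodomain sites, was found in 6 of the 20 mouse peaks and 1 of the 17 pig peaks, against 10.2% and 4.75% of all distal H3K27ac peaks. CAATAAA, a core of posterior HOX sites, was found in 3 and 1, against 9.17% and 4.36%, and GACCACC, a core of GLI sites, in 1 and 2, against 4.78% and 7.11%. The 6 mouse peaks with TAATTA were 2 at Epha3 and 1 at each other gene. In the promoter windows of the 5 mouse genes these letters did not occur, and they occurred in 5.29%, 4.60% and 2.80% of all mouse promoters, in the order given. A match of such short letters is a description of the sequence and not a binding site.

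Among the 17 other Eph and ephrin genes, H3K4me3 lay at the start of 17 in mouse and 16 in pig. H3K27ac lay at 9 and 9, and H3K4me1 at 11 and 11. The shares over the orthologs were 81.9% and 77.9% for H3K4me3, 52.1% and 55.6% for H3K27ac, and 68.9% and 72.4% for H3K4me1. The state differed between species for H3K4me3 at the receptor gene Epha8, marked in mouse only. For H3K27ac it differed at Epha6 and Efna3, marked in pig only, and at Efna1 and Efnb3, marked in mouse only. By the 1 kb window, Efna2 was therefore 1 of 3 ephrin genes with H3K27ac at the start in mouse and not in pig. A 2.5 kb window gave H3K27ac at 9 of the other genes in mouse and 11 in pig. Some pig calls, and with them the genes that differ, thus depended on the window. Efna2 itself stayed marked in mouse only. The ligand genes Efna4, Efnb1 and Efnb2 and the receptor genes Ephb2, Ephb3, Ephb4 and Ephb6 carried H3K27ac in both.

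Of 20 genes that act below Eph receptors, among them the Rac regulators Chn1 and Chn2, the kinases Fyn and Src and the sheddase Adam10, 20 carried H3K4me3 in both species, 16 in mouse and 17 in pig carried H3K27ac, and 17 and 19 carried H3K4me1. Over the orthologs H3K4me3 lay at 81.9% and 77.9%, H3K27ac at 52.1% and 55.6%, and H3K4me1 at 68.9% and 72.4% (mouse first). A further list held 9 limb transcription factors named upstream of Eph or ephrin genes or of the limb programme. Of these, H3K27ac lay at 8 in mouse and 6 in pig. This difference depended on the 1 kb window, since a 2.5 kb window gave 9 in mouse and 9 in pig. By the 1 kb window, Lmx1b, Hoxa13, Hoxd13, Meis2, Tbx5 and Msx1 had H3K27ac in both, Hoxa11 and Prrx1 in mouse only, and Hoxd11 in neither.

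By the number of peaks of the 6 lists over the gene and 1 kb on each side, on the log2(1 + number) scale, the orthologs nearest to Epha3 were Eri3 (distance 0.72) and Sema6d (0.79). Nearest to Epha4 were Prickle1 (0.34) and Pik3r1 (0.47), and nearest to Efna5 were Kcnq1 (0.59) and Vti1a (0.62). Epha7 had 2 genes with the same 6 numbers, Iqce and Ptn, and Efna2 had 12, of which Tmbim1 and Esr2 came first when ties were broken by covered length. Likeness here is over 6 lists and describes peak counts only.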

How the data were processed

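The authors deposited 6 consensus lists of peak positions, 1 per species and mark, whose values are chromosome coordinates without any score. Per the series' design text, reads were used at 50 bp, aligned to GRCm38/mm10 or Sscrofa11.1/susScr11, and peaks were called with a broad IDR (irreproducible discovery rate) limit of 0.01. The submitters' processing notes list Bowtie2 2.3.5, SAMtools 1.9, deepTools 3.5, Trimmomatic 0.39 and FastQC 0.11.9. Which program called the peaks is not stated in the labels. A broad setting joins neighbouring signal, so the number and width of peaks depend on it.

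Peaks were placed on NCBI RefSeq genes of the same assemblies with Python 3.11.15 and pysam 0.24.0. An overlap of 1 bp counted. Peaks on sequences not used here numbered 15, 4 and 17 in mouse (H3K27ac, H3K4me1, H3K4me3) and 1 in each pig list. Orthologs were coding genes with 1 record of the same symbol. Peak sequences within 500 kb were aligned to the 500 kb on each side of the ortholog with blastn 2.17.0 (soft masking, word size 11, E value of 1e-10 or lower), keeping alignments in the gene's orientation. For the background, and for the mouse distal peaks counted as matching a pig peak, mouse peaks were aligned to the sequences of pig peaks. The blastn settings were the same, but alignments in either orientation were kept.

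The 5 genes, the gene lists and the rules were chosen with earlier results of these data known. Named beyond the 5 genes were the other Eph and ephrin genes whose H3K4me3 or H3K27ac call at the TSS differed between species, and for each of the 5 the 2 orthologs nearest in peak counts, leaving out genes within 1 Mb. Further genes are named as neighbours or as members of lists, some after their values were seen. No test was run, since there is 1 list per species and mark, and nothing was averaged over samples. The sequence of 1 element is not reported here.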

Additional observations from a re-analysis of the deposited data

How the results depend on the processing

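No paired analysis was possible because each species and mark has 1 consensus list and no replicate has values of its own, and leaving out a replicate could not be computed for the same reason. Of the totals over the 5 genes and over the gene lists, 103 recomputed values stayed within 1.5 times of the reported value and 42 did not. Of the values for single genes, 152 stayed, 55 moved and 3 reversed. The cause was not tested. A stricter or wider rule holds fewer or more peaks of a list by construction. Distal peaks can also be gained under a stricter rule, where the H3K4me3 peaks that define distal are thinned too. Keeping the wider 50% of the peaks of each list stands in for a stricter threshold, since the lists hold no score. It left H3K4me1 at the start of 1 of the 5 genes in mouse. Among the other Eph and ephrin genes it left mouse H3K4me3 at 10, mouse H3K4me1 at 6 and pig H3K4me1 at 7. It left mouse H3K27ac at 10 of the Eph signalling genes and pig H3K4me1 at 2 of the upstream limb factors. Distal H3K27ac peaks then numbered 8 in mouse and 8 in pig, of which 5 and 5 overlapped H3K4me1. Peaks in the 5 genes then numbered 4, 5 and 28 in mouse (H3K4me3, H3K27ac, H3K4me1) and 4, 4 and 34 in pig. Pig minus mouse distal peaks reversed to 1 at Epha3, where mouse went from 3 to 0 and pig from 0 to 1, and to -1 at Epha4, where 2 were left in mouse and 1 in pig. The pig EPHA3 peak is the H3K27ac peak in intron 1, which counted as distal once its H3K4me3 peak was dropped. Requiring the TSS base itself inside a peak left H3K4me1 at 0 of the 5 genes in mouse, at 4 and 6 of the other Eph and ephrin genes in mouse and pig, at 8 and 10 of the signalling genes, and at 2 and 2 of the limb factors, with mouse H3K27ac at 4 limb factors. Counted at the 5′ end alone, H3K4me1 was at 0 of the 5 genes in pig and at 9 and 12 signalling genes in mouse and pig, and a 2.5 kb window gave pig H3K4me1 at 3 of the 5. Within 250 kb, distal H3K27ac came to 9 peaks and 20.7 kb in mouse and 10 peaks and 11 kb in pig. Peaks with a member as nearest coding gene were 11 with 27.2 kb in mouse and covered 8.45 kb in pig. Leaving H3K4me3 out of the definition of distal gave pig 26 peaks and 31.2 kb. With pig H3K27ac alone as target, 1 mouse distal peak had a match. In a window of 1 Mb, chosen after seeing the data, mouse had 32 peaks with 84.9 kb and pig 29 with 34.9 kb, and pig minus mouse reversed to 2 at Epha7, with 1 peak in mouse and 3 in pig, while pig EPHA3 had 2. An E value of 1e-05 or a minimum aligned length of 100 bp did not move the count of matches past that limit.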
